A study of Homo sapiens with 8 samples.

Results

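The genes described are 8 that encode the cell's detectors of double-stranded RNA and their close partners: DDX58, IFIH1, DHX58, MAVS, TLR3, ADAR, EIF2AK2 and ZBP1. They were chosen by name, all 8 were found among the 59050 gene symbols of the count tables, and 7 of them had enough reads to be tested. RNA was sequenced from 8 xenograft tumours of the established human line H2122, labelled lung cancer. In 4 tumours the cells were parental, labelled wild type, and in 4 they carried a knockout of SMARCA4, which encodes one of the motor subunits of SWI/SNF chromatin remodellers. Both groups received vehicle only. The labels do not say whether the knockout line is 1 clone or a pool, nor what immune cells the host retained. Nor do they say whether each tumour grew in its own animal, so p-values measure only the spread between these samples.

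Double-stranded RNA is rare in an unstressed cytosol and is treated as a sign of virus or of the cell's own repetitive transcripts. RIG-I (DDX58) and MDA5 (IFIH1) are helicases that bind it and activate the mitochondrial adaptor MAVS, which turns on interferon genes, while LGP2 (DHX58) is their relative without the signalling domains. TLR3 detects it in endosomes, PKR (EIF2AK2) shuts down translation on binding it, ZBP1 binds its left-handed form and can start cell death, and ADAR edits it so that the sensors ignore it. Most of these genes are themselves induced by interferon, MAVS being a textbook exception.

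Libraries held 19785922 to 23191698 gene counts, with 79.1% to 85.2% of reads assigned to a gene. Levels are given as CPM, read counts per 1000000 after TMM scaling of the libraries, and changes as log2 fold changes of knockout over parental. SMARCA4 stood at 198 to 235 CPM in the 4 parental libraries and 22.3 to 31.1 CPM in the 4 knockout libraries, so every library matched its label. Of 16219 genes tested, 27.0% were called changed (edgeR quasi-likelihood test, adjusted p under 0.05), 13.0% higher and 14.1% lower in knockout tumours. Epithelial markers, among them EPCAM and the keratins, summed to 5756 to 6929 CPM in parental and 4634 to 6237 CPM in knockout tumours. Of the 6 tested, KRT7 and KRT19 were called lower and 4 were not called. The 14 markers of leukocytes summed to 12.9 to 102 CPM in parental and 18.3 to 41.1 CPM in knockout tumours, with none of them at 0 in every library and 0 of the 10 tested called (edgeR; 0 at an unadjusted p under 0.05). Parental replicates 2 and 3 were the highest, at 102 and 85.6 CPM. The 10 fibroblast markers summed to 182 to 612 and 346 to 607 CPM, most of it COL1A1, with means of 353 and 447 CPM. Of the 6 tested, LUM was called higher and 5 were not called, COL3A1 alone lying lower (log2 fold change -0.16). Untested markers went both ways, DCN with 9 parental and 24 knockout counts and PDGFRB with 27 and 15. The 8 endothelial markers summed to 7.41 to 18.3 and 9.20 to 15.5 CPM. Of the 2 tested, VWF was called lower and PECAM1, with a log2 fold change of 0.30, was not called. Among those with too few reads, CDH5 had 36 parental and 0 knockout counts, and TIE1 had 15 and 30. The 10 skeletal muscle markers summed to 4.40 to 45.3 and 2.83 to 18.4 CPM, and parental replicate 2 was again the highest. Only 1 of them, MB, was tested, and it was called lower. The groups overlapped for the 9 not tested, among them ACTA1 with 269 parental and 183 knockout counts and TNNI2 with 26 and 28. In bulk tumours, fewer cells of a type and less RNA per cell cannot be told apart. Reads were aligned to the human genome, and how reads of the host were handled is not given. Marker reads of host cell types may therefore be host reads or reads of the human tumour cells, and these were not told apart.

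DDX58 rose in knockout tumours and was the 1 member of the 7 tested that was called, a share to be read beside the 27.0% of all genes called. Its paralog IFIH1 lay higher without passing the test, and the third paralog, DHX58, lay lower without passing it. MAVS, ADAR and EIF2AK2, the most abundant members, had fold changes close to 1, and ZBP1 was close to undetected. The median log2 fold change of the 7 tested members was -0.07, against 0.00345 over all genes tested.

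**Figure D1:**
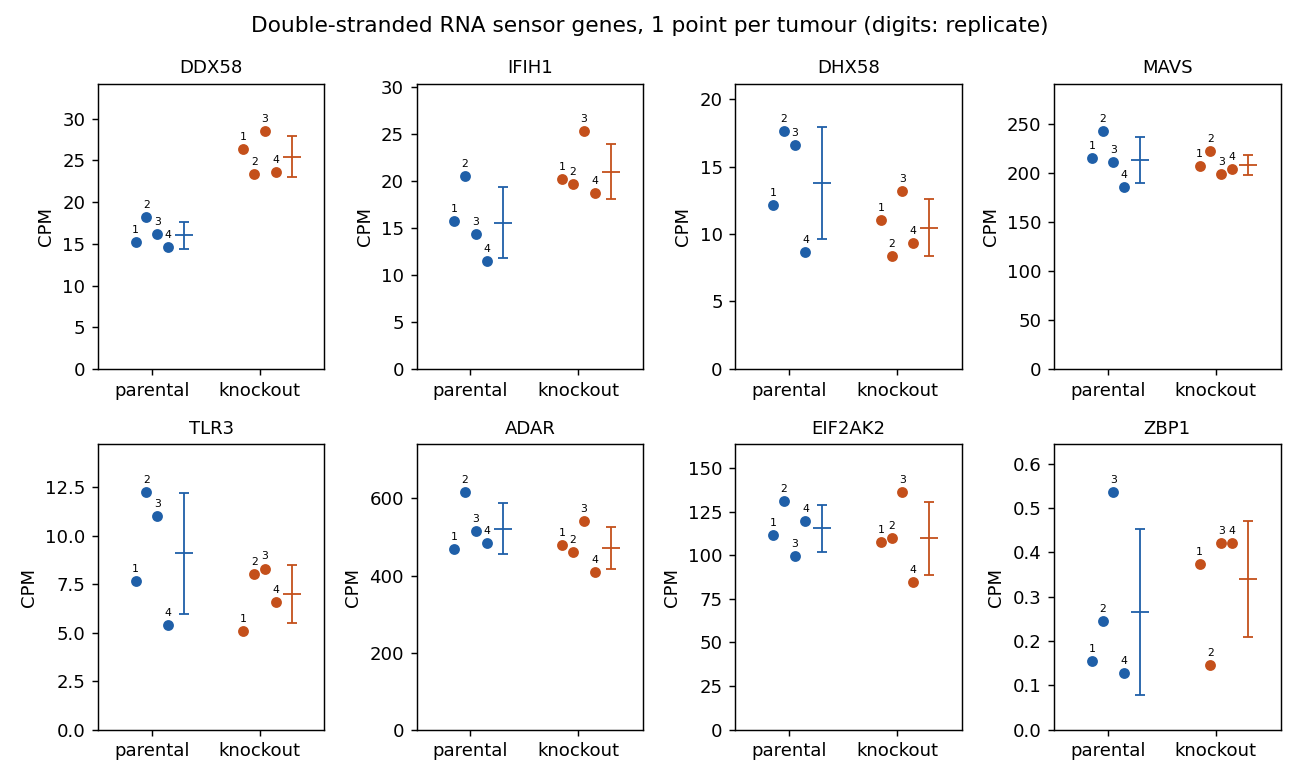
CPM (y axis, from 0, a separate scale for each gene) of the 8 sensor genes in parental (blue) and SMARCA4 knockout (orange) tumours, with 1 point per tumour, digits for the replicate, and mean ± SD (n = 4) beside the points. The 4 knockout tumours lie above all 4 parental tumours for DDX58, at 23.4 to 28.5 against 14.6 to 18.2 CPM, and the groups overlap for the other 7 genes.

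DDX58 (ENSG00000107201, chromosome 9, 32455705 to 32526324, minus strand, GENCODE 29 on GRCh38) encodes RIG-I, which recognises short double-stranded RNA with a 5′ triphosphate. It was at 15.2, 18.2, 16.2 and 14.6 CPM in parental replicates 1 to 4, and at 26.4, 23.4, 28.5 and 23.6 CPM in knockout replicates 1 to 4. The lowest knockout tumour lay above the highest parental one; groups were apart in either direction for 29.3% of all genes tested, and with knockout higher for 14.0%. Means were 16.0 ± 1.59 and 25.5 ± 2.44 CPM (SD, n = 4 each). Its log2 fold change was 0.67 (edgeR adjusted p = 0.000916; SE 0.109), a 1.59-fold rise with a 95% interval of 1.35 to 1.87. It stayed past the threshold in all 16 other analyses, with log2 fold changes of 0.61 to 0.73. The gene had 293 to 611 counts per library, a counting error of 4.05% to 5.84%, and no exon of another annotated gene overlaps its exons.

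IFIH1 (ENSG00000115267, chromosome 2, 162267079 to 162318703, minus strand) encodes MDA5, which recognises long double-stranded RNA. Its level was 15.8, 20.6, 14.4 and 11.5 CPM in parental replicates 1 to 4, and 20.3, 19.7, 25.3 and 18.7 CPM in knockout replicates 1 to 4. The groups overlapped only through parental replicate 2, which lay above 3 of the 4 knockout tumours. Its log2 fold change was 0.44 (edgeR adjusted p = 0.0791; SE 0.169), with a 95% interval of the fold from 1.05 to 1.75 before adjustment, so the gene was not called. Without parental replicate 2, the tumour with the highest leukocyte, fibroblast and muscle marker sums, it was 0.60 with an adjusted p of 0.0116, a call. The library of that tumour also had the lowest share of reads assigned to a gene, 79.1%, and the highest share not aligned uniquely, 8.11%. Adding a leukocyte score to the model (the mean log2 of CPM + 0.25 over the 14 markers) gave 0.50 with an adjusted p of 0.0258, also a call. Across all 16 other analyses the adjusted p ran from 0.0116 to 0.213, and those 2 were the only ones to call it.

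DHX58 (ENSG00000108771, chromosome 17, 42101404 to 42112733, minus strand) encodes LGP2, which assists MDA5 and can restrain RIG-I. It was at 12.2, 17.6, 16.6 and 8.67 CPM in parental replicates 1 to 4, and at 11.0, 8.34, 13.2 and 9.34 CPM in knockout replicates 1 to 4. Parental replicates 2 and 3 stood above every knockout tumour, while parental replicates 1 and 4 lay within the knockout range. Its log2 fold change was -0.39 (edgeR adjusted p = 0.221; SE 0.221), a fold of 0.762 with a 95% interval of 0.544 to 1.07. Without parental replicate 4 it was -0.57 with an adjusted p of 0.0421, the only call among the 16 other analyses, whose highest adjusted p was 0.429.

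**Figure D2:**
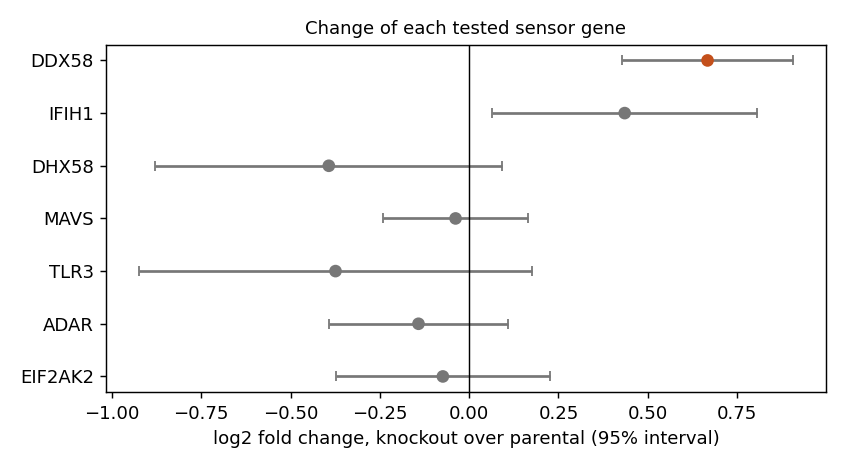
Log2 fold change of knockout over parental (x axis) for the 7 tested sensor genes, with unadjusted 95% intervals as bars and DDX58, the gene called, in orange. The interval of DDX58 runs from 0.43 to 0.91, and those of MAVS, ADAR and EIF2AK2 hold 0.

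The balance among the 3 RIG-I-like receptors was compared within each tumour, as a ratio of read counts to DDX58, which does not depend on how libraries are scaled. The ratio of DHX58 to DDX58 was 0.595 to 1.03 in parental and 0.356 to 0.463 in knockout tumours. The groups were apart, and the mean log2 ratio differed by -1.03 (exact two-sided permutation p = 0.0286, the smallest that 4 against 4 tumours can give, and 0.04 after Benjamini-Hochberg adjustment over 7 ratios). The ratio of IFIH1 to DDX58 was 0.787 to 1.13 in parental and 0.770 to 0.889 in knockout tumours, which overlap, with a mean log2 difference of -0.21 (exact permutation p = 0.171, adjusted 0.2). A smaller rise of IFIH1 than of DDX58 was therefore not shown.

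Ratios to DDX58 also fell without overlap for MAVS, TLR3, ADAR and EIF2AK2, by 0.70, 1.00, 0.81 and 0.75 on the log2 scale (exact permutation p = 0.0286 each, adjusted 0.04). The ratio of ADAR went from 31.0 to 33.9 in parental to 17.3 to 19.7 in knockout tumours and had the smallest SD of the log2 ratio within groups, 0.0578 and 0.0802 (n = 4 each). All 7 ratios share DDX58, so they are not separate pieces of evidence, and 57.9% of the 16138 genes with reads in every tumour also had a lower ratio to DDX58 without overlap. For ZBP1 the difference was -0.19 (exact permutation p = 0.743), and its sign turned without parental replicate 3 (0.22) or knockout replicate 2 (0.13).

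**Figure D3:**
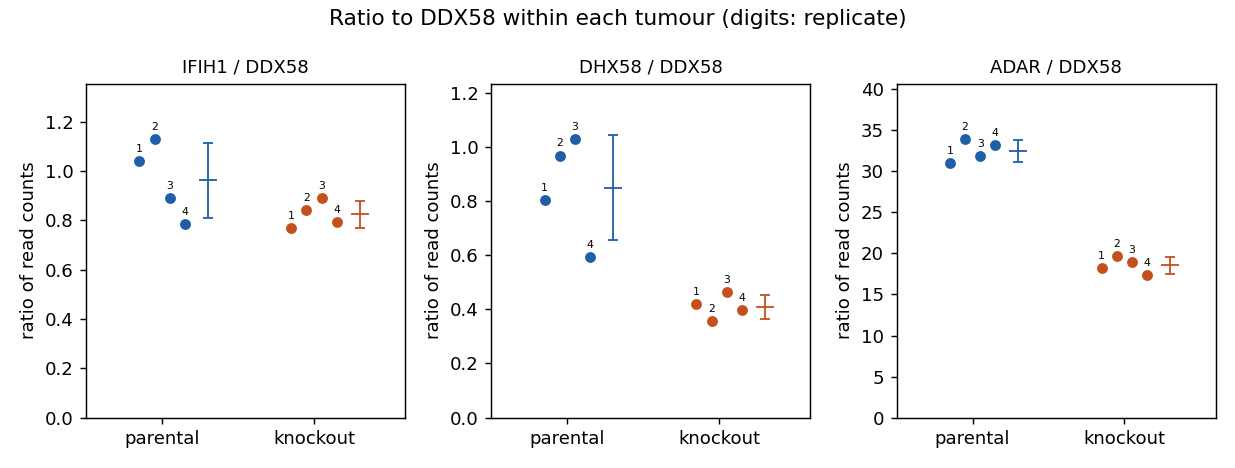
Ratio of read counts of IFIH1, DHX58 and ADAR to DDX58 within each tumour (y axes from 0, separate scales), parental in blue and knockout in orange, with mean ± SD (n = 4) beside the points and digits for the replicate. The groups overlap for IFIH1 and are apart for DHX58, at 0.595 to 1.03 against 0.356 to 0.463, and for ADAR.

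MAVS (ENSG00000088888, chromosome 20, 3846799 to 3876123, plus strand) encodes the adaptor through which RIG-I and MDA5 both signal. It was at 215, 242, 211 and 186 CPM in parental replicates 1 to 4, and at 207, 222, 199 and 203 CPM in knockout replicates 1 to 4. The knockout values all lay inside the parental range. On the log2 scale the difference was -0.04 (edgeR adjusted p = 0.803; SE 0.0929), with a 95% interval of the fold from 0.846 to 1.12. Its sign turned without parental replicate 2 (0.03), with no call in any analysis.

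TLR3 (ENSG00000164342, chromosome 4, 186069152 to 186088069, plus strand) encodes the endosomal sensor. It was at 7.66, 12.3, 11.0 and 5.40 CPM in parental replicates 1 to 4, and at 5.09, 8.04, 8.31 and 6.58 CPM in knockout replicates 1 to 4. Parental replicates 2 and 3 were again above every knockout tumour and parental replicate 4 was below 3 of them. On the log2 scale the difference was -0.37 (edgeR adjusted p = 0.303; SE 0.25), with a wide 95% interval of the fold from 0.527 to 1.13. It ran from -0.57 to -0.20 over the other analyses, none with a call. The 2 parental tumours that were high in DHX58 and TLR3 are those with the most leukocyte marker reads; with that score in the model the log2 fold changes were -0.26 for DHX58 and -0.21 for TLR3.

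ADAR (ENSG00000160710, chromosome 1, 154582057 to 154628013, minus strand) encodes the editing enzyme ADAR1, in a long interferon-induced form and a short constitutive form that counts per gene do not separate. It was at 470, 617, 515 and 483 CPM in parental replicates 1 to 4, and at 479, 462, 541 and 409 CPM in knockout replicates 1 to 4. The groups overlapped, with parental replicate 2 above every knockout tumour and knockout replicates 2 and 4 below every parental one. On the log2 scale the difference was -0.14 (edgeR adjusted p = 0.392; SE 0.113), with a 95% interval of the fold from 0.763 to 1.08. With 8757 to 12638 counts per library, counting error was at most 1.07%.

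EIF2AK2 (ENSG00000055332, chromosome 2, 37099210 to 37157065, minus strand) encodes the kinase PKR. It was at 111, 131, 99.6 and 119 CPM in parental replicates 1 to 4, and at 108, 110, 136 and 84.9 CPM in knockout replicates 1 to 4. Knockout replicates 3 and 4 were the highest and the lowest of all 8 tumours. On the log2 scale the difference was -0.07 (edgeR adjusted p = 0.735; SE 0.136), with a 95% interval of the fold from 0.772 to 1.17, and 0.03 without knockout replicate 4. Of its 10753 exonic bases, 436 overlap exons on the plus strand of GPATCH11 or a pseudogene, whose reads cannot be told apart there without strand.

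ZBP1 (ENSG00000124256, chromosome 20, 57603846 to 57620576, minus strand) encodes the Z-form nucleic acid sensor. Parental replicates 1 to 4 held 3, 5, 12 and 3 of its reads and knockout replicates 1 to 4 held 8, 3, 9 and 9, too few for the test. The groups overlapped, at 0.128 to 0.536 and 0.146 to 0.420 CPM (exact two-sided permutation p = 0.457). The knockout-to-parental ratio of pooled counts, 29 against 23, was 1.27 with an exact 95% interval of 0.712 to 2.31, which covers counting error only. A change was not detectable at this depth.

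Levels were set side by side per kilobase of merged exons, since a longer gene collects more reads. In parental tumours the order was ADAR at 53.8 ± 6.87 CPM per kb, MAVS at 18.1 ± 1.98, EIF2AK2 at 10.7 ± 1.23, DDX58 at 3.68 ± 0.366, DHX58 at 3.58 ± 1.08, IFIH1 at 3.05 ± 0.741, TLR3 at 1.35 ± 0.466 and ZBP1 at 0.0492 ± 0.0346 (SD, n = 4 each). The 3 RIG-I-like receptors were not apart: DDX58 at 3.35 to 4.18, DHX58 at 2.26 to 4.59 and IFIH1 at 2.25 to 4.02 CPM per kb. In knockout tumours they were, with DDX58 at 5.38 to 6.55, IFIH1 at 3.66 to 4.96 and DHX58 at 2.17 to 3.44 CPM per kb. All other neighbours in the order were apart in both groups. The exon lengths merge every annotated transcript, so a gene that uses only short transcripts is understated; MAVS, for example, is annotated with 11771 exonic bases and DHX58 with 3843.

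**Figure D4:**
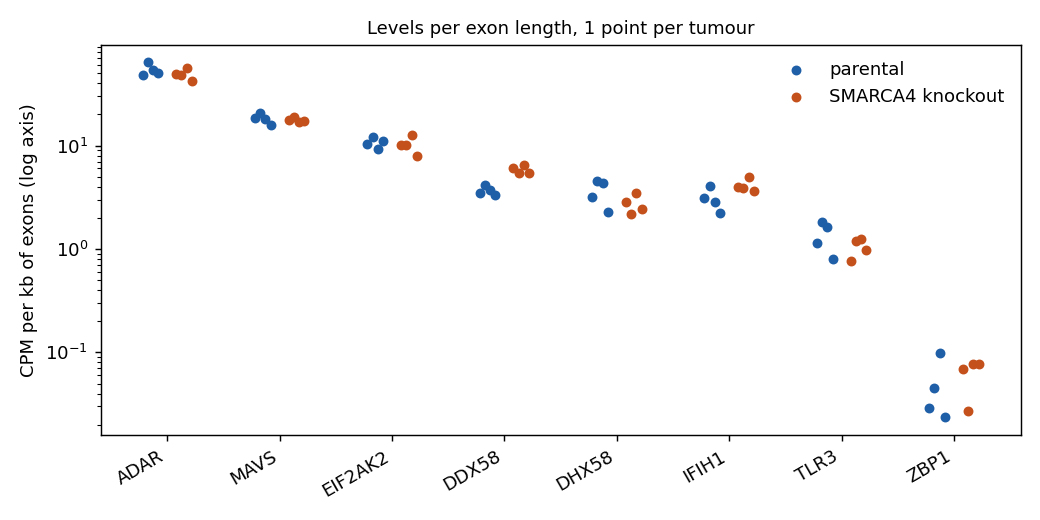
CPM per kilobase of merged exons (log y axis) for the 8 sensor genes, ordered by their parental mean, with 1 point per tumour, parental in blue and knockout in orange. ADAR is highest at 53.8 ± 6.87 in parental tumours, and DDX58, IFIH1 and DHX58 overlap in parental but not in knockout tumours.

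Tumours of the same group also differed from each other, and the members varied together. Parental replicate 2 was the highest parental tumour for all 7 tested members, and knockout replicate 3 the highest knockout tumour for 6 of them, all but MAVS. With group means removed, all 21 pairs of members had a positive Pearson r of log2 CPM over the 8 tumours, from 0.11 to 0.92, and 15 were over 0.5. Of all 13052 genes compared, 17.7% to 21.3% had an r over 0.5 with a given member, and the median r was -0.01 to 0.02. DDX58 followed ADAR (0.92), DHX58 (0.89) and IFIH1 (0.86), so DHX58 and DDX58 rose and fell together within a group while their ratio differed between the groups. That difference is not particular to DHX58, as 57.9% of 16138 genes had a lower ratio to DDX58 without overlap. The weakest links were those of MAVS and EIF2AK2 (0.11) and of TLR3 and EIF2AK2 (0.19). Points within a group share their mean, and how far single tumours set each r was not tested.

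**Figure D5:**
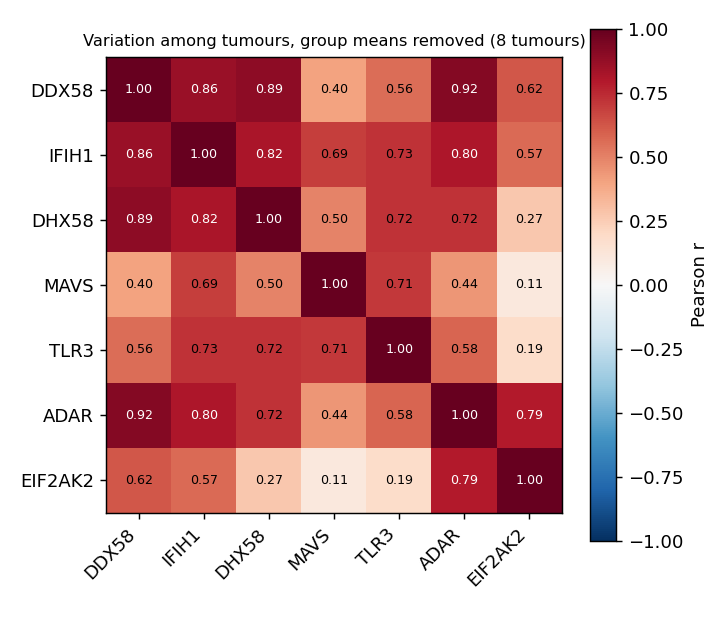
Pearson r between members (both axes) of log2 CPM over 8 tumours after each group's mean was subtracted, as colour and as the printed value. DDX58, IFIH1, DHX58 and ADAR are joined by values of 0.72 to 0.92, and MAVS and EIF2AK2 by 0.11.

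The same variation was followed by many genes of the interferon response list, which also holds receptor and kinase genes of the pathway. Of 29 genes of that list that reached a mean log2 CPM of 1, 23 had an r over 0.5 with DDX58, or 79.3%, against 18.1% of all 13052 genes compared. The counts were also 23 for DHX58 and for ADAR, 19 for IFIH1, 18 for TLR3 and 13 for EIF2AK2. For these 5 members that is 44.8% to 79.3% of the 29, against 17.7% to 20.5% of all genes. For MAVS, the member that is not an interferon target, the count was 7, or 24.1%, against 21.3% of all genes. Knockout replicate 3 was the highest knockout tumour for 20 of 31 tested genes of the list and parental replicate 2 the highest parental tumour for 21. The genes closest to DDX58 by this measure were HELZ2, an interferon-induced helicase (0.97), KIAA1324L (0.96) and SHROOM2 (0.96). Those closest to DHX58 were the interferon-induced membrane gene IFITM1 (0.99), DIS3L2 (0.98) and TMCO4 (0.97), and among those closest to IFIH1 were DHTKD1 (0.98) and FSTL1 (0.97). The closest to MAVS were WNT2B, THNSL2 and ANKRD24 (0.96 to 0.97), to TLR3 ZNF383, ARSG and ZBTB42 (0.98 to 0.99), to ADAR FKBP9, ABCA1 and LARP1 (0.98), and to EIF2AK2 SLC7A1, MAP2K4 and AP3B1 (0.97 to 0.98). These closest genes were picked as the highest of 13052 values of r over only 8 tumours. The highest r was 0.97 to 0.99 for every tested member, MAVS included. How high it would reach by chance was not tested, so single names carry little weight.

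The stretches of promoter below are those of DDX58 and IFIH1, the 2 of the 7 tested members that lay higher in knockout tumours. Both are interferon targets, but so are DHX58, TLR3, ADAR and EIF2AK2, which lay lower. A link between the motifs and the changes was not tested. They come from RefSeq (GRCh38.p14), in which 6 of the 8 members were matched, with 8 start sites in all. Capitals mark the cores of interferon-stimulated response elements (GAAANNGAA) or of sites for interferon regulatory factors (AANNGAAA), on either strand and with overlaps joined; the shorter one was added after the letters had been seen. The IFIH1 stretch is chr2:162318798-162318878 and the DDX58 stretch chr9:32526325-32526428, both on the minus strand and written 5′ to 3′.
IFIH1: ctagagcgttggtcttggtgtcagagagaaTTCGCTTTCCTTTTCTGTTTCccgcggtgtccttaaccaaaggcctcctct
DDX58: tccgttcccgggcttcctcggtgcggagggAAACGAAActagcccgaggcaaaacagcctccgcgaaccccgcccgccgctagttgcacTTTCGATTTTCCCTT

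In the 250 bases before the start, GAAANNGAA was found 4 times for IFIH1 and not for the other 5 matched members, and 6.88% of all 35116 windows held it. The shorter AANNGAAA was found 4 times for IFIH1 and 3 times for DDX58, against 20.3% of all windows with at least 1. The core of gamma-activated sites, TTCNNNGAA, was found 2 times for TLR3 and for no other matched member, against 6.57% of windows. A match describes the letters of the window and no match says only that they are not there. The RefSeq start of DDX58 lies inside the GENCODE gene, which reaches 32526324 within a window of 32526147 to 32526446. Part of the 250 bases searched for DDX58 is therefore annotated as gene, and the printed stretch stops where that gene begins. Starts of other matched members, IFIH1, MAVS and EIF2AK2 among them, also lie inside their GENCODE genes. The printed IFIH1 stretch holds 3 of its 4 matches to GAAANNGAA and 2 of its 4 to AANNGAAA. Its other match to GAAANNGAA begins 21 bases before the start. Counts of matches depend on which start is used.

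Few genes for proteins that act with RIG-I, MDA5 and MAVS were called. Of 40 regulators and adaptors tested, 1 was called higher and 2 lower, or 7.5% against 27.0% of all genes, with a median log2 fold change of -0.01. The ubiquitin ligases that license RIG-I did not pass the test: TRIM25 was at 123 ± 13.2 and 118 ± 5.75 CPM and RNF135 at 24.3 ± 2.19 and 25.1 ± 3.01 CPM (SD, n = 4 each), with edgeR adjusted p-values of 0.662 and 0.786. TRAF2, a ubiquitin ligase recruited by MAVS, rose from 18.7 ± 1.23 to 24.9 ± 1.95 CPM (log2 fold change 0.41, adjusted p = 0.00808). RNF5, a ligase that marks MAVS for degradation, fell from 33.3 ± 1.69 to 25.5 ± 1.77 CPM (-0.39, adjusted p = 0.00673). IKBKE, a kinase downstream of MAVS and of other sensors, fell from 34.1 ± 8.97 to 19.7 ± 2.74 CPM (-0.79, adjusted p = 0.00558). The kinase and transcription factor genes TBK1 (0.06), IRF3 (-0.10) and IRF7 (-0.08) did not pass the test, with adjusted p-values of 0.684, 0.50 and 0.755; IRF7 was at 0.02 without knockout replicate 2, and RNF135 at -0.03 rather than 0.05 without knockout replicate 4.

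Of 10 genes tested in a list of toll-like receptors and their helpers, TLR3 aside, 3 were called higher and 3 lower, against 27.0% called among all genes, with a median log2 fold change of 0.05. TICAM1, the adaptor of TLR3, rose from 38.2 ± 5.64 to 55.0 ± 10.5 CPM (SD, n = 4 each; log2 fold change 0.53, edgeR adjusted p = 0.0209), with overlap between the groups. UNC93B1, which carries TLR3 to endosomes, fell from 209 ± 26.0 to 145 ± 15.9 CPM (-0.52, adjusted p = 0.00512). CNPY3, a chaperone of several toll-like receptors, fell from 26.9 ± 0.852 to 18.8 ± 1.33 CPM (-0.51, adjusted p = 0.00134). Receptors and adaptors outside the double-stranded RNA branch were called too: TLR6 (1.35, adjusted p = 4.18e-05) and TIRAP (0.59, adjusted p = 0.00346) were higher and TLR2 (-1.51, adjusted p = 0.00161) was lower. Reads of TLR6 can be shared with its close paralogs. TICAM1 was no longer called without parental replicate 1 (adjusted p = 0.0543) or 4 (0.0508), or without knockout replicate 1 (0.0676) or 2 (0.0606).

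Among 26 other double-stranded RNA-binding proteins tested, 1 was called higher and 2 lower, or 11.5% against 27.0% of all genes, with a median log2 fold change of -0.01. ADARB1, the second editing enzyme of the ADAR family, rose from 18.6 ± 3.29 to 43.0 ± 6.44 CPM (SD, n = 4 each). This change of 1.21 on the log2 scale (edgeR adjusted p = 0.000109; SE 0.145) held in all 16 other analyses, from 1.12 to 1.32. STAU2 (-0.30, adjusted p = 0.0145) and STAU1 (-0.25, adjusted p = 0.0375), which bind double-stranded stretches of messenger RNA, fell. STAU1 lost its call when any 1 tumour other than parental replicates 3 and 4 was left out (adjusted p of 0.0650 to 0.0813). OAS3, a synthetase that makes oligoadenylates on binding double-stranded RNA, was at 192 ± 32.3 and 216 ± 39.5 CPM (0.18, adjusted p = 0.413). Its relative OAS2 was at 4.37 ± 2.96 and 2.01 ± 1.02 CPM (-1.12, adjusted p = 0.125). PRKRA, a protein activator of PKR, and the helicase DHX9 did not pass the test (-0.07 and -0.09, adjusted p = 0.643 and 0.560).

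Downstream of PKR, 20 genes of translation control and the integrated stress response were tested, and 1, EIF2B5, was called lower (log2 fold change -0.37, edgeR adjusted p = 0.0176), or 5.0% against 27.0% of all genes, with a median of -0.05 over the list. EIF2B5, a subunit of the exchange factor of eIF2, lost its call without knockout replicate 2 (adjusted p = 0.0555) or 3 (0.0615), and the list then held 1 and 0 called genes; without knockout replicate 4 it held 2. All 8 tumours gave 2 called genes in the list by DESeq2, by limma-voom or with RLE scaling, and 3 with the leukocyte score in the model. EIF2S1, the PKR substrate, was at 132 ± 19.6 and 128 ± 5.10 CPM (-0.05, adjusted p = 0.781). PPP1R15A, which reverses its phosphorylation, was at 56.2 ± 8.90 and 62.6 ± 14.4 CPM (0.15, adjusted p = 0.547). Counts of messenger RNA do not show the phosphorylation itself.

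In the cell-death branch that ZBP1 can start, 2 of 11 tested genes were called higher and 0 lower. This is 18.2%, against 27.0% of all genes called in either direction and 13.0% called higher. The median log2 fold change of the list was 0.07. MLKL, the executioner of necroptosis, rose from 29.4 ± 4.97 to 71.1 ± 9.35 CPM (SD, n = 4 each). The groups were apart, and the change of 1.28 on the log2 scale (edgeR adjusted p = 4.74e-05; SE 0.135) was called in all 16 other analyses (1.18 to 1.37). The kinase RIPK3, which phosphorylates MLKL, was at 3.03 ± 0.880 and 2.41 ± 0.140 CPM (-0.33, adjusted p = 0.299), and RIPK1 at 29.5 ± 1.68 and 30.5 ± 1.12 CPM (0.05, adjusted p = 0.706). CFLAR, a caspase-8 inhibitor, rose by 0.36 (adjusted p = 0.0370), with overlap between the groups. That call was lost without parental replicate 1 (adjusted p = 0.117) or 4 (0.0903), or without knockout replicate 1 (0.110), 2 (0.0923) or 3 (0.0749), which each left 1 called gene in the list.

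Interferon genes, the output of these sensors, were almost silent. Of 20 genes, 14, IFNB1 among them, were at 0 counts in each of the 8 libraries, where a count of 0 allows up to 3, and 5, IFNL1 among them, had 1 to 3 counts over all libraries. The remaining 1, IFNE, an epithelial interferon that is not induced by these sensors, had 249 parental and 265 knockout counts (log2 fold change 0.10, edgeR adjusted p = 0.860).

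The list of interferon response genes also holds receptor and kinase genes of the pathway, IFNAR1, IFNLR1 and JAK1 among them. Of its 31 genes tested, 1 was called higher and 6 lower, or 22.6% against 27.0% of all genes. Over all genes, 13.0% were called higher and 14.1% lower. The median log2 fold change of the list was -0.33. IFI44L (-2.50, edgeR adjusted p = 0.00410), MX2 (-1.68, adjusted p = 0.00335) and DTX3L (-0.47, adjusted p = 0.00969) were lower, and the receptor gene IFNLR1 was higher (1.16, adjusted p = 0.00110). The transcription factor genes STAT2 (0.00498) and IRF9 (0.33) did not pass (adjusted p = 0.984 and 0.315). The list held 11 called genes with no filter on low counts and also without knockout replicate 3, where IFI44L was at -3.21, and STAT2 ran from -0.12 to 0.09 as single tumours were left out. Parental replicate 2 had the highest sum over the list, 1242 CPM, and the highest leukocyte marker sum; the part of leukocyte RNA in the list's values was not tested.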

How the data were processed

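Total RNA of 8 xenografts was sequenced, with 1 file per tumour. Per the submitters' processing notes the authors used TopHat2 2.1.1, HTSeq 0.11.0 and hg38; the annotation, counting options, strandedness and any separation of host reads are not given in the sources used here. Each deposited file lists, for every gene symbol, its raw count of reads. Summary lines that name no gene (14.8% to 20.9% of reads) were left out. Groups and replicate numbers come from the sample titles. The members, lists and rules for naming genes were chosen with earlier results of these data known.

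Genes were kept by filterByExpr (minimum count 10, minimum total 15), scaled by TMM and tested with edgeR 4.0.16 in R 4.3.3 (quasi-likelihood F-test, no covariate, Benjamini-Hochberg over all 16219 genes); the fit was tested on simulated data. Intervals of fold changes use its SE and degrees of freedom. Permutation tests used scipy 1.17.1. Likeness used log2 CPM with a prior count of 2. Exon lengths and positions are from GENCODE 29. Named were all members, SMARCA4, 24 fixed genes, the 3 smallest p-values in each direction of each of 7 lists, and the 3 genes most like each member; what the rule names and the text omits is not reported here. The protein comparison that had been planned was not made. Alternatives were DESeq2 1.42.0, limma-voom (limma 3.58.1), 2 other scalings, 2 other filters, a replicate block, a leukocyte covariate and leaving out each tumour.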

Additional observations from a re-analysis of the deposited data

Results flagged for a closer look

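Among 91 sets of 4 values for the members, SMARCA4 and the named genes, 6 had a highest or lowest tumour far from the other 3, where chance flags about 5%. ZBP1 in knockout replicate 2 was at 0.146 CPM, against 0.374 to 0.420 CPM in the other knockout tumours, which is 3 counts against 8 or 9. TRAF2 was at 27.8 CPM in knockout replicate 1, against 23.6 to 24.2 CPM. STAU1 was at 163 CPM in knockout replicate 4, against 185 to 189 CPM. STAU2 was at 41.7 CPM in parental replicate 3, against 45.5 to 45.6 CPM. IFNL1 was at 0.0934 CPM in knockout replicate 1, from 2 counts, and at 0 in the others. IFI44L was at 2.38 CPM in knockout replicate 3, against 0.560 to 0.841 CPM.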

How the results depend on the processing

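The call of DDX58 held in all 16 alternatives as did that of SMARCA4, with log2 fold changes of -3.08 to -2.93. The number of called members was 1, and 2 with the leukocyte covariate (IFIH1 added); leaving out 1 tumour gave 1 to 2. Numbers of called genes stayed within 1.5 times, from 3501 to 5267 against 4385, and 54.1% of calls were higher with upper-quartile scaling and 43.7% with no filter, against 47.9%.

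Values near 0 changed sign without a call. STAT2 was -0.00348 by DESeq2, -0.00342 with RLE scaling and -0.0157 with no filter. Leaving out 1 tumour gave -0.12 to 0.0878 for STAT2, -0.10 to 0.0275 for MAVS, -0.19 to 0.0339 for EIF2AK2, -0.14 to 0.00881 for PRKRA, -0.12 to 0.0438 for EIF2S1, -0.25 to 0.0187 for IRF7, -0.0335 to 0.10 for RNF135 and -0.42 to 0.22 for the ZBP1 ratio. STAU1 missed the threshold with upper-quartile scaling, no filter and the block (adjusted p = 0.0533, 0.0840 and 0.0689), and OAS2 passed it with no filter (0.0318). The cause of these changes was not tested.

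With the replicate number as a block DDX58 was at 0.67 (adjusted p = 0.00457) and 1 member was called, while the PKR list held 2 called genes in place of 1. Deviations from the group means correlated across genes at -0.28 to 0.12 for same-numbered tumours and at -0.28 to 0.33 for differently numbered ones. This check cannot show whether same-numbered tumours shared a batch, which the labels do not state. Depth limits ZBP1 and the interferon genes.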
